A study of Mus musculus with 6 samples.

Results

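Fibro-adipogenic progenitor marker genes, 10 in number, were looked for by symbol in a table of 14016 genes from bulk RNA sequencing of injured mouse quadriceps, and all 10 were listed. They are the receptor genes Pdgfra and Pdgfrb, the surface marker genes Ly6a, Cd34, Thy1 and Dpp4, the proteoglycan genes Dcn and Lum, and the transcription factor genes Tcf7l2 and Twist2. The muscle came from 6 mice at 7 days post-injury (dpi), 3 of them wild-type (WT) C57BL/6 and 3 ΔdblGATA, which the labels call a GATA-1 mutant. ΔdblGATA mice lack eosinophils because a site for GATA factors in a promoter of Gata1 is deleted in the germline, so the deletion is not limited to one cell type. All 6 mice received volumetric muscle loss, a surgical removal of part of the quadriceps, with no implant. By the study's methods both legs were injured, and the gap in control injuries was filled with sterile saline. Those methods give female sex and young adult age for the WT mice only.

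Fibro-adipogenic progenitors are mesenchymal cells that lie between the muscle fibres. After injury they multiply, lay down matrix and release factors that act on muscle stem cells, and they are known to respond to IL-4 and IL-13. When repair goes wrong, the same cells can become fat cells or matrix-producing fibroblasts.

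The values given are the authors' means over the 6 mice of log2 CPM, read counts scaled to the size of each library, so they describe injured muscle of both genotypes together. Values per mouse were not analysed here, which means that no error, no count of mice and no depth per library stands behind a value, and that differences between genes could not be set against the spread between mice. The genotypes were not compared, since the rest of the table is the authors' own test of that question. Bulk muscle also cannot tell a change in the number of cells from a change in RNA per cell. The study's methods state a filter of 1 CPM in at least 3 samples, but means in the table go down to -4.08 log2 CPM and the filter could not be checked on values per mouse, so a gene absent from the table is described only as not listed.

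As a group, the markers were well expressed in injured muscle. By mean log2 CPM, 7 of the 10 lay above the 75th percentile of all listed genes, and the median marker was at percentile 83.2. The other 3, Tcf7l2, Dpp4 and Twist2, lay below the 50th percentile. Turned back from the log scale and summed, the 10 markers amounted to 972 CPM, which is 0.105% of the same sum over all listed genes. Dcn alone was 48.5% of the markers' sum.

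**Figure D1:**
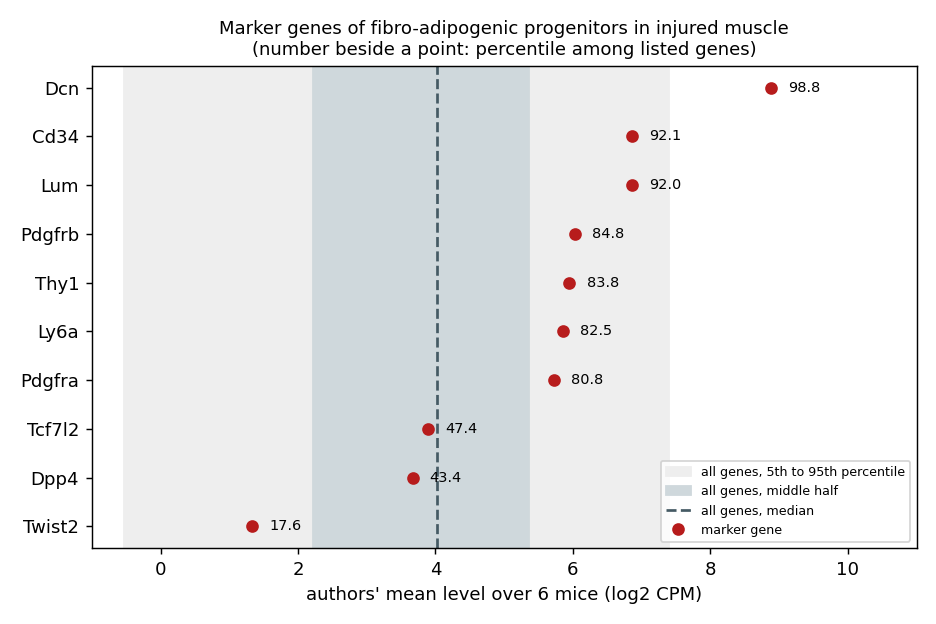
Mean level of each progenitor marker over the 6 mice, in log2 CPM as the authors give it (horizontal axis), for the 10 genes (vertical axis), with each gene's percentile among all listed genes printed beside its point. The shaded bands show where all listed genes lie. Dcn at 8.88 is highest and Twist2 at 1.34 lowest, and 7 points lie to the right of the darker band.

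Long transcripts give more reads than short ones at the same number of molecules, so levels of different genes are compared below per kilobase of the longest coding transcript, on a log2 scale (log2 CPM per kb). On that scale the median marker was at 4.37, against 2.28 for all genes of known length, and 5 of the 10 markers lay above the 75th percentile. The range from Dcn to Twist2 was 8.07 on the log2 scale, or 268-fold, and 6.40, or 84.4-fold, when the coding sequence was taken as the length. The order was Dcn, Ly6a, Lum, Cd34, Thy1, Pdgfrb, Pdgfra, Tcf7l2, Dpp4 and Twist2.

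The length chosen for a gene moved some neighbours in this order. Dcn was first and Tcf7l2, Dpp4 and Twist2 were last whether the longest coding transcript, the median coding transcript or the coding sequence was used. Ly6a, Lum, Cd34 and Thy1 always came after Dcn and before the PDGF receptors, but in a varying order among themselves. Pdgfrb stood above Pdgfra by 0.64 on the log2 scale with the longest transcript and by 0.29 with the coding sequence, and below it, at -0.61, with the median transcript.

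**Figure D2:**
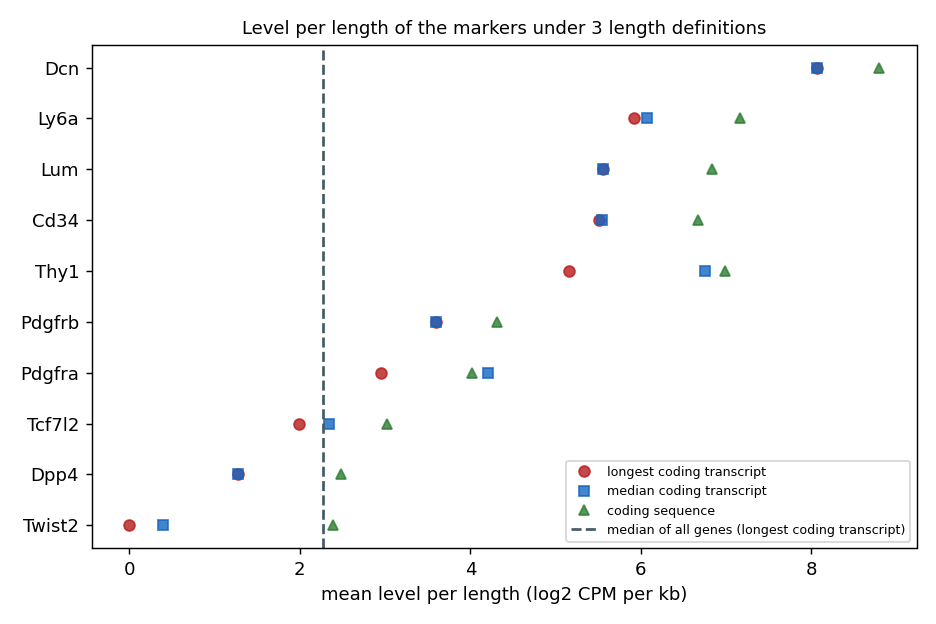
Mean level per length of the 10 markers (log2 CPM per kb, horizontal axis) under 3 definitions of a gene's length, shown as circles, squares and triangles. The markers keep their broad order, from Dcn at the top to Twist2 at the bottom, and Twist2 spreads most, from 0.00 to 2.40.

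Dcn had the highest level of the 10 markers, while Lum, the other proteoglycan gene among them, stood below Ly6a per length and just below Cd34 by mean log2 CPM. Decorin, encoded by Dcn, binds collagen fibrils and TGF-β in the matrix. Dcn had a mean of 8.88 log2 CPM (471 CPM), rank 165 among the listed genes, and 8.07 log2 CPM per kb. Lumican, encoded by Lum, also binds collagen fibrils and steers their thickness. Lum had a mean of 6.85 log2 CPM (116 CPM) and 5.56 log2 CPM per kb, so that Dcn was 5.67-fold higher per length. With the coding sequence as length this ratio was 3.89.

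Dcn and Lum are neighbours in the genome. In GENCODE M21, on the GRCm38 build, Dcn spans chromosome 10 from 97479609 to 97518143 and Lum from 97565128 to 97572703 on the same strand, with 46984 bases and 0 annotated genes between them. Kera and Epyc, of the same family, follow on that strand. Kera (97606879 to 97613692) was at 3.47 log2 CPM per kb, and Epyc (97644068 to 97682454) was not listed. The level per length was therefore lower at each listed gene along this stretch, from Dcn through Lum to Kera.

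Of 12 small leucine-rich proteoglycan genes, 10 were listed, with a median of 5.30 log2 CPM per kb. Biglycan, encoded by Bgn and the closest relative of decorin, was next to Dcn at 7.59 log2 CPM per kb. Aspn followed at 6.19, Fmod at 5.31, Ogn at 5.30, Prelp at 3.68, Podn at 2.67 and Chad, a gene of cartilage, at 1.69. Omd, a gene of bone matrix, was not listed. Lum was thus the 4th highest of the family, after Dcn, Bgn and Aspn.

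Pdgfra encodes the receptor used most often to identify these progenitors. It had a mean of 5.73 log2 CPM (53.0 CPM) and 2.95 log2 CPM per kb, at percentile 62.0 per length. It lies on chromosome 5 of GRCm38 from 75152292 to 75198215 and has 23 exons in its longest coding transcript of 6834 nt. The 7 coding transcripts of the gene have a median of 2876 nt, which is why its level per length depends so much on the definition. Pdgfrb, on chromosome 18, encodes the related receptor, which mural cells of vessels carry too. Pdgfrb had a mean of 6.03 log2 CPM (65.5 CPM) and 3.59 log2 CPM per kb.

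All 4 genes for PDGF ligands were listed. Pdgfa, whose product binds the α receptor, was at 4.47 log2 CPM per kb, and Pdgfc, whose product binds it after cleavage, at 1.68. The level per length of Pdgfra was 0.35-fold that of Pdgfa and 2.42-fold that of Pdgfc. With the other lengths these ratios ran from 0.22 to 0.59 and from 1.49 to 5.74. Pdgfb, a ligand gene for both receptors, was at 3.53, within 0.07 log2 units of Pdgfrb, but Pdgfrb stood at -2.10 relative to Pdgfb on the log2 scale with the median transcript and at -1.24 with the coding sequence. Pdgfd, a ligand gene for the β receptor, was at -0.34, so that Pdgfrb was 15.2-fold higher per length, or 8.86-fold with the coding sequence. Among the other genes of the same receptor kinase class, Csf1r of macrophages was at 3.92, Kit at -0.97 and Flt3 at -2.18 log2 CPM per kb.

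Per length, the surface markers Ly6a, Cd34 and Thy1 stood near Lum, below Dcn and above the PDGF receptors. By mean log2 CPM, Pdgfrb at 6.03 stood above Thy1 at 5.95 and Ly6a at 5.85. Ly6a encodes Sca-1, a small protein anchored in the membrane by a lipid and used to sort progenitors of muscle and blood. It had a mean of 5.85 log2 CPM (57.7 CPM) and 5.92 log2 CPM per kb. Its transcripts are short, 955 nt at the longest, and the gene spans 74994877 to 74998031 on chromosome 15 of GRCm38, beside its relatives. Ly6c1, a gene of endothelial cells, was close to Ly6a at 5.86 log2 CPM per kb, and so was Ly6e at 5.83. Of 10 Ly6 genes, 6 were listed, with Ly6a the highest per length and Ly6d the lowest at -1.55. By mean log2 CPM Ly6e stood above Ly6a, at 7.02 (129 CPM), and these genes were not compared under other lengths.

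The level of Ly6a is uncertain because it shares sequence with these relatives. Of the 31-base words in its longest transcript, the word length that kallisto commonly uses to assign reads, 22.1% also occur in transcripts of other genes, and 10.6% occur in Ly6c1. For Ly6c1 itself the share is 57.1%. The first 90 coding bases show one stretch where the genes are alike, which does not stand for the whole transcripts. They are given from the transcript sequences of GENCODE M21, 5′ to 3′, with the bases that differ in capitals. In GRCm38 these bases of Ly6a lie at chr15:74997535-74997604 and chr15:74996549-74996568, and those of Ly6c1 at chr15:75048442-75048511 and chr15:75047450-75047469, all on the minus strand.
Ly6a: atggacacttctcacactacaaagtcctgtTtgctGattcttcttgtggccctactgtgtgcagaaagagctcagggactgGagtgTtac
Ly6c1: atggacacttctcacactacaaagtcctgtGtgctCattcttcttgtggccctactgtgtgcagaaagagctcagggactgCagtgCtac
Only 4 of the 90 bases differ, and the longest stretch without a difference is 45 bases, so that several whole 31-base words fit in it and cannot tell the genes apart.

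CD34, a sialomucin of progenitors that endothelial cells also carry, is encoded by Cd34 on chromosome 1 of GRCm38 (194938819 to 194961279). Cd34 had a mean of 6.87 log2 CPM (117 CPM) and 5.51 log2 CPM per kb, 0.40 below Ly6a on the log2 scale. An exon of Gm16897, on the opposite strand, overlaps the gene, and 4.79% of its words are shared with that transcript. Thy1 encodes CD90, found on fibroblasts and on mouse T cells. Thy1 (chromosome 9, 44043384 to 44048579) had a mean of 5.95 log2 CPM (61.8 CPM) and 5.15 log2 CPM per kb, and 0 of its words occur in other genes. With the median coding transcript, which is 572.5 nt against 1735 nt for the longest, Thy1 would stand at 6.75 and above Ly6a.

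Dpp4 encodes CD26, a membrane peptidase that marks a subset of fibroblast progenitors in several tissues. Dpp4 (chromosome 2 of GRCm38, 62330073 to 62412231) had a mean of only 3.67 log2 CPM (12.7 CPM) and 1.27 log2 CPM per kb, at percentile 33.6. Pi16, often found in the same subset, was at 3.78. Thy1 exceeded Dpp4 14.8-fold per length, and 44.8-fold with the median transcript or 22.8-fold with the coding sequence. Among its family, Fap, which encodes the fibroblast activation protein, was 4.67-fold higher than Dpp4 per length, at 3.49 log2 CPM per kb, and 2.44-fold higher with the coding sequence. The intracellular relatives Dpp8, Dpp9 and Dpp7 were at 4.60, 3.61 and 3.12, and the neuronal genes Dpp6 and Dpp10 at -1.32 and -4.58.

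The transcription factor genes were the lowest of the markers together with Dpp4. Tcf7l2, a nuclear effector of Wnt signalling that marks connective tissue fibroblasts of muscle, had a mean of 3.89 log2 CPM (14.8 CPM) and 2.00 log2 CPM per kb, close to the median of all genes. It lies on chromosome 19 of GRCm38 from 55741820 to 55933654 and has 22 annotated transcripts, 12 of them coding. Its relative Tcf7l1 was at 2.07 and Tcf7, a gene of T cells, at -0.03, while Lef1 was not listed. Twist2, which encodes a bHLH factor of mesenchymal progenitors, had a mean of 1.34 log2 CPM (2.52 CPM), at percentile 17.6.

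The value of Twist2 is the least certain of the 10. Its level per length was 0.00 log2 CPM per kb with the longest transcript of 2525 nt and 2.40 with the coding sequence of 480 nt. In GENCODE M21 the gene (chromosome 1 of GRCm38, 91801461 to 91848028) is overlapped on the opposite strand by Gm29100, which is not in the table, and 57.6% of the words of its longest transcript occur there as well. Whether the library kept strand is not given in the sources used here, and without strand reads of such a pair cannot be told apart. Twist1, the paralog, was 8.97-fold higher per length at 3.16 log2 CPM per kb, and Prrx1, a homeobox gene of limb mesenchyme, 17.9-fold higher at 4.16. With the coding sequence these ratios were 4.49 and 30.1. Of 7 mesenchymal transcription factor genes, Tcf21 was the one not listed.

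The markers were then set beside lists of related genes and of other cell types. The 11 fibroblast matrix and secreted genes were all listed, with a median of 6.17 log2 CPM per kb, from Pi16 at the bottom to Col3a1, a chain of fibrillar collagen, at 9.27. All 11 lay above the 75th percentile of genes per length, against 5 of the 10 markers. Pi16, at 3.7780, only just passed that percentile, which was at 3.7773, and other lengths were not tried for this list. Of 10 genes of type 2 cytokine signalling 8 were listed, with a median of 2.24. Il4 was at 0.46 log2 CPM per kb, its receptor chain Il4ra at 0.74, Il13ra1 at 2.38, Il2rg at 2.56, Stat6 at 3.55 and Jak1 at 4.86. The value of Il4 rests on a mean of only -0.27 log2 CPM (0.83 CPM) and a transcript of 605 nt. Il4ra had a mean of 3.14 log2 CPM (8.79 CPM) over 5256 nt, so the 2 genes were near each other only per length. Of the words of Il2rg, 42.7% occur in other genes. Il33, an alarm cytokine that progenitors in muscle can make, was at 2.10, and its receptor gene Il1rl1 at 0.05. Il13 and Il13ra2 were not listed.

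**Figure D3:**
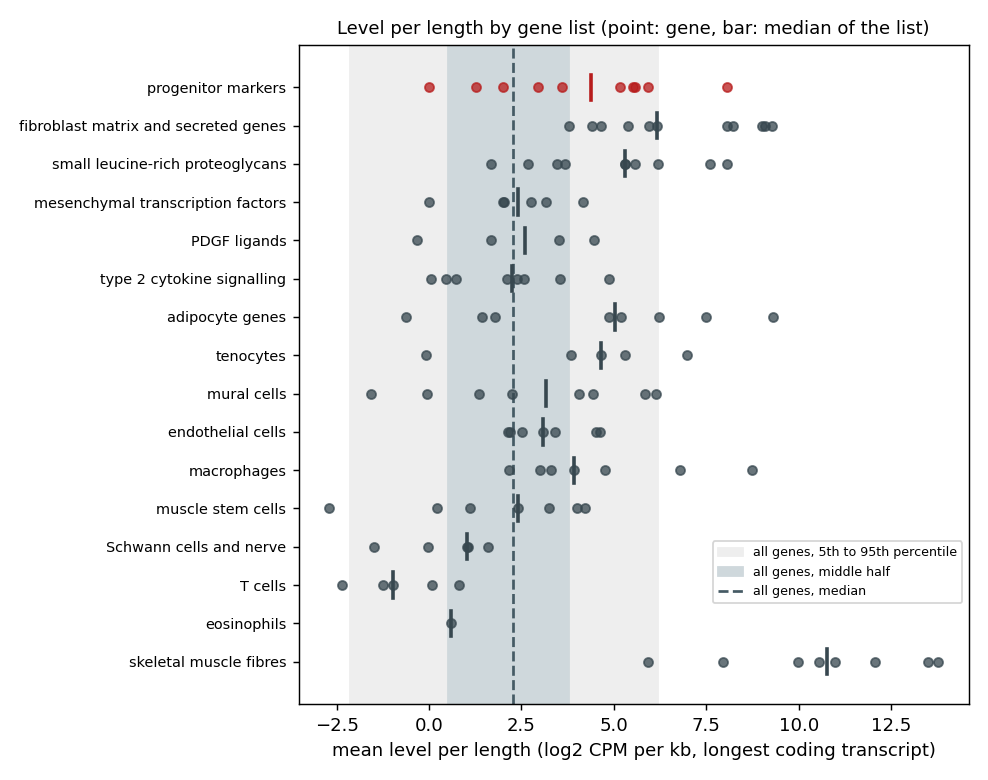
Mean level per length (log2 CPM per kb, horizontal axis) of every listed gene in 16 gene lists (rows), with a vertical bar at each list's median and bands for all genes. Progenitor markers, in red, have a median of 4.37. The nearest medians on either side are those of tenocyte genes at 4.66 and macrophage genes at 3.92. Fibroblast matrix genes are at 6.17 and endothelial genes at 3.07, while fibre genes lie far to the right at 10.77.

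Several of the markers are known in other cell types too, and most genes fixed as markers of those types were listed. The 7 endothelial genes, whose cells also carry Cd34 and Ly6a, were all listed between Vwf at 2.13 and Pecam1 at 4.63 log2 CPM per kb. The 8 mural cell genes, whose cells also carry Pdgfrb, had a median of 3.16, from Kcnj8 at -1.57 to Acta2 at 6.15. Of 7 T cell genes, whose cells also carry Thy1, 5 were listed, and they were low, between Cd8a at -2.36 and Cd3d at 0.80, with Cd3g and Trbc2 not listed. All 5 listed T cell genes were below Thy1 at 5.15. How much each cell type gave to a marker was not tested.

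Genes of the fates and neighbours of progenitors covered a wide range. The 8 adipocyte genes had a median of 5.03 log2 CPM per kb. They ranged from Plin1, a lipid droplet coat gene, at -0.63 to Fabp4, which endothelial cells and macrophages make as well, at 9.30. Between these ends, Lpl was at 7.49, Adipoq at 6.23, Cidec at 5.18, Cebpa at 4.87, Pparg at 1.78 and Lep at 1.44. Tenocyte genes ran from Mkx at -0.08 to Thbs4 at 6.98, and Schwann cell genes from Sox10 at -1.50 to Mbp at 1.60. Muscle stem cell genes had a median of 2.40, from Calcr at -2.69 to Itga7 at 4.21, and macrophage genes one of 3.92, from Itgam at 2.18 to Lyz2 at 8.72. Both ends of the macrophage range are uncertain, since 74.1% of the words of Itgam and 32.8% of those of Lyz2 occur in other genes.

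The label of skeletal muscle was checked against 8 fibre genes, all listed, which had a median percentile of 99.8 per length, from Ttn at 5.92 to Acta1 at 13.77 log2 CPM per kb, and made up 8.65% of the summed CPM of all listed genes. Of 8 eosinophil genes only Ear2 was listed, at 0.61 log2 CPM per kb, and 60.5% of its words occur in other genes. Siglecf, Epx, Prg2, Ccr3, Il5ra, Ear1 and Ear6 were not listed.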

How the data were processed

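Quadriceps RNA of 3 mice per genotype was poly(A)-selected, per the labels, and sequenced in paired ends, per the study's methods. The authors quantified transcripts by kallisto and took gene sums to CPM in edgeR. By the methods genes had to exceed 1 CPM in 3 or more samples, which was not checked here, and log values with TMM scaling went into limma. The version of kallisto and its index are not given in the sources used here. The deposited values used here are the log2 CPM means over all 6 samples. The other 5 columns hold the authors' genotype comparison (log2 fold change, moderated t, p-value before and after adjustment, log odds) and were not used, so the planned limma fit was not run. Library depth is unknown. The submitters' processing notes name GRCm39, while positions here are from GENCODE M21 (GRCm38).

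Of 14015 symbols, 13458 matched M21 directly and 486 through older symbols (Adgre1 is listed under an older one), and 1 row has no symbol. Level per length is mean log2 CPM minus log2 of transcript length in kb. A percentile is the share of genes ranked lower. Shared 31-base words were counted against transcripts of other genes, on either strand. Calculations used Python 3.11.15, numpy 2.4.6 and pandas 2.3.3 and were tested on simulated data.

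The markers and lists were chosen with earlier results of these data known. Named are all 10 markers, every gene of the PDGF, receptor kinase, type 2 cytokine, proteoglycan, TCF and DPP4 lists, and from other lists the highest, the lowest and, for lists of up to 8 genes, those not listed. Outside this rule, Ly6c1, Ly6e, Twist1 and the adipocyte genes between the highest and the lowest were named after their values were seen. The planned comparison of proteins was not made. Alternatives tried were protein-coding genes only, minimum mean levels and other lengths, the last for related genes chosen after seeing the data.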

Additional observations from a re-analysis of the deposited data

How the results depend on the processing

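No paired analysis was possible because the values used are means over all 6 samples, and for the same reason no replicate was left out in turn and no other pseudocount or fit per sample was run. The median percentile of the markers by mean log2 CPM, 83.2 among all listed genes, was 82.9 among protein-coding genes, 80.1 among genes with a mean of at least 1 log2 CPM and 75.6 among those with at least 3, where Twist2 drops out. By level per length it was 81.0, and 80.8, 77.6 and 84.4 under the same restrictions, 79.2 with the median coding transcript and 77.4 with the coding sequence. Counts of markers above the 50th and the 75th percentile stayed within 1.5 times their value under all of these settings. With the median coding transcript, the difference between Pdgfrb and Pdgfra turned to -0.61 from 0.64 on the log2 scale, and that between Thy1 and Ly6a to 0.68 from -0.76. The difference between Pdgfrb and its ligand gene Pdgfb, 0.07, turned to -2.10 with the median coding transcript and -1.24 with the coding sequence, lengths tried for this pair after seeing the data. These turns follow from the lengths, since the levels are the same. Without depth or values per mouse, no difference between markers can be set against its error.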
